A study of Mus musculus with 40 samples.

Results

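At 2177 genomic sites, macrophages of both C57BL6/J and BALBc/J mice had a peak of the transcription factor PU.1 before treatment, and neither strain had an overlapping one after 1 hr of Kdo2-lipid A (KLA), a Toll-like receptor 4 agonist. Members were chosen by their PU.1 peak calls and the untreated C57BL6/J H3K4me2 calls, starting from the 67074 untreated C57BL6/J PU.1 peaks. An untreated BALBc/J peak overlapped 55043 of them by at least 1 bp, and 38286 of those lay in an H3K4me2 region of untreated C57BL6/J cells. Of these, 2177 sites (5.69%) overlapped no PU.1 peak after KLA in either strain and are called lost. The 32114 sites (83.88%) with a peak after KLA in both strains are called retained, and 1977 and 2018 sites were without a peak only in C57BL6/J and only in BALBc/J. The mirror set, called gained, holds 2103 sites with PU.1 and H3K4me2 after KLA and no untreated PU.1 peak in either strain.

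The cells were adherent peritoneal macrophages elicited with thioglycollate broth in the inbred strains C57BL6/J and BALBc/J. They received medium with 100 ng/ml KLA for 1 hr, or for 4 hr in RNA-Seq alone, or fresh medium without it. PU.1, C/EBPa, H3K27Ac and H3K4me2 had 1 ChIP-Seq library per strain and treatment, p65 had 2 per strain after KLA, and GRO-Seq and RNA-Seq had 1 per strain and condition. The 30 libraries used held 7.1 to 14.37 M tags (M, mega) in ChIP-Seq. GRO-Seq libraries held 39.4 to 48.3 M and RNA-Seq libraries 17.0 to 20.3 M. The labels do not say whether the libraries came from separate animals, so errors measure at most the spread between libraries. In GRO-Seq, the errors and p-values of the fit rest on 1 variance trend shared by all genes, not on the spread of the gene itself. The macrophage label held in RNA-Seq. The 8 macrophage markers summed to 78059 to 102413 tags per 10 M after KLA and 76034 to 81908 untreated. The 5 markers of mesothelial cells and fibroblasts summed to 1248 to 2803 after KLA and 1690 to 2954 untreated. Neutrophil markers summed to 128.5 to 340.5 after KLA and 78.5 to 131.3 untreated. Those of T and NK cells summed to at most 234.1, of B cells to 47.9 and of mast cells to 34.9. Eosinophil and erythroid markers summed to at most 1.2 and 0.5, with Epx and Hba-a1 listed at 0.

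PU.1 is an ETS family factor that binds purine-rich DNA around a GGAA core. It opens chromatin at macrophage enhancers together with partners such as C/EBPa, and its binding is accompanied by H3K4me2, a mark of promoters and enhancers in use or in reserve, while H3K27Ac lies at active ones. KLA drives the NF-kB subunit p65 into the nucleus, where much of its binding falls on enhancers that PU.1 had already opened.

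The lost sites carried fewer PU.1 tags before treatment than the retained ones. These tag values took part in choosing the members, so they are given as a description. The median was 26.3 tags per 10 M in C57BL6/J and 27.6 in BALBc/J at lost sites, against 70.5 and 73.5 at retained sites. Among sites with under 20 tags on average over the strains, 27.52% were lost, and the share was 13.64% at 20 to 30 tags, 5.91% at 30 to 50, 2.79% at 50 to 100 and 0.68% (77 sites) at 100 and over.

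The lowest PU.1 peak called after KLA had 11.5 tags in C57BL6/J and 11.1 in BALBc/J, and the files list no value where no peak was called. In C57BL6/J, 39.5% of the lost sites had stood less than 2-fold above that floor and 20.3% more than 4-fold above it. The BALBc/J shares were 35.5% and 23.6%. A call also needed a fold over the 10 kb surroundings, whose untreated median was 9.65 at lost sites and 30.15 at retained sites in C57BL6/J. A site without a listed peak is therefore not a site without PU.1, above all among the weak ones.

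Some of the lost sites had PU.1 nearby after KLA rather than none. Of the 2177 sites, 508 (23.3%) had a PU.1 peak after KLA whose centre lay within 500 bp in at least 1 strain, at a median distance of 311.5 bp. The other 1669 had none that near, with a median distance of 2053 bp. The share with a neighbour was 13.5% among sites under 20 tags and 53.2% among those at 100 tags and over. Peaks of 1 list are kept at least 400 bp apart by the caller, and 383 of the 508 neighbours were closer to the lost site than that. Results below are therefore given also for the 1669 sites where this changes the value.

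**Figure D1:**
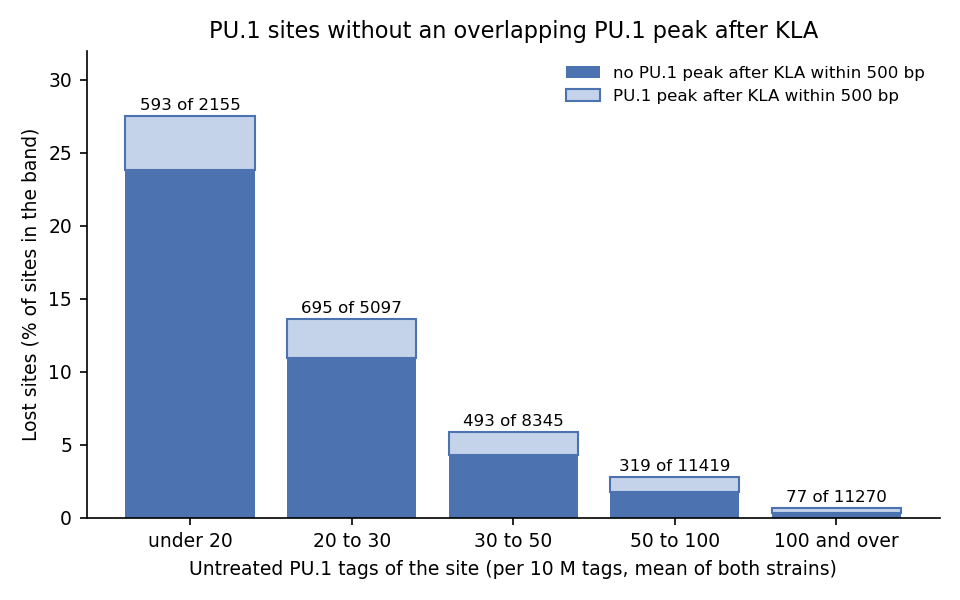
Percentage of untreated PU.1 sites (both strains, with H3K4me2) that were lost after KLA, by untreated PU.1 tags per 10 M tags (mean of both strains). Bars are split by whether a PU.1 peak after KLA lay within 500 bp, and the share lost falls from left to right, 27.52% to 0.68%.

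Promoter sequences of 5 genes are shown because a lost peak was centred in each of them. Lair1 (an inhibitory collagen receptor of leukocytes), Rab11a (a GTPase of recycling endosomes) and Dpp7 (a lysosomal dipeptidyl peptidase) had no PU.1 peak within 500 bp after KLA, whereas Fam43a and Arpc1b (a subunit of the actin-branching Arp2/3 complex) did. Each runs 5′ to 3′ on the strand of the gene from 250 bases before to 50 after the RefSeq start on GRCm38.p6, and capitals mark GGAA or its complement TTCC, and GAGGAAGT. The genes were chosen after their values were seen, from the strongest lost peaks in promoters of genes with a single RefSeq start.
Lair1, chr7:4063155-4063454, minus strand: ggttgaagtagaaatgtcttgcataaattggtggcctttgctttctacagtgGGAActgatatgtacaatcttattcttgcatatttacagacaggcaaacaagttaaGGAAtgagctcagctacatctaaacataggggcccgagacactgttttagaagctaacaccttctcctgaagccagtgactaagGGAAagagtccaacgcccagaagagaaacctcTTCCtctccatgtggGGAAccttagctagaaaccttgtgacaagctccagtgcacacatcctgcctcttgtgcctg
Rab11a, chr9:64737707-64738006, minus strand: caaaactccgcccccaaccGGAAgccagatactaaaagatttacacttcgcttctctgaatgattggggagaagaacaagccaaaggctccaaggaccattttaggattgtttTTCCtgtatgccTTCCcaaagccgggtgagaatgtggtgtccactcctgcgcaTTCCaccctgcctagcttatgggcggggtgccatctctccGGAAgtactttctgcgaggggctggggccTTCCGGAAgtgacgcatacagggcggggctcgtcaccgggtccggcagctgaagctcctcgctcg
Dpp7, chr2:25356283-25356582, minus strand: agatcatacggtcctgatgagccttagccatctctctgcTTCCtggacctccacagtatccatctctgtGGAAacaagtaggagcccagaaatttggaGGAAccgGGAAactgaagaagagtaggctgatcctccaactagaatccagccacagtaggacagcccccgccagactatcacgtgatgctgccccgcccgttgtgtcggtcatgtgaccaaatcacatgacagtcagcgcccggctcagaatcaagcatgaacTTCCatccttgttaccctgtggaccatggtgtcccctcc
Fam43a, chr16:30599473-30599772, plus strand: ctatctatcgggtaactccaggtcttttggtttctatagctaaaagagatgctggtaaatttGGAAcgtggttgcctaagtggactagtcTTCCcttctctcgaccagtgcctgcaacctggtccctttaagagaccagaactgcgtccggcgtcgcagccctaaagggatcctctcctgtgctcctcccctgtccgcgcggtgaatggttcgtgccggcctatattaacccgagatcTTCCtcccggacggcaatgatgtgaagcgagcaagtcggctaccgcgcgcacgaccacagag
Arpc1b, chr5:145114006-145114305, plus strand: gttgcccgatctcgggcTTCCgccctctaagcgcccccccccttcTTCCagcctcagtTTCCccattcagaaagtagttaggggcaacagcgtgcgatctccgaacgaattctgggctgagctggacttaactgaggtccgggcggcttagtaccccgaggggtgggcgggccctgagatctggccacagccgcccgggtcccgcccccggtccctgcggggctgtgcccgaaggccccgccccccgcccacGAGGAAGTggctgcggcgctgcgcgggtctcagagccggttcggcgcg

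The Lair1 window holds 5 GGAA cores, Rab11a 7, Dpp7 5, Fam43a 3 and Arpc1b 4, of which the one just after the start is part of GAGGAAGT. Of the 117 lost peaks centred in such a window outside chromosome 18, 96 (82.1%) matched a gene with a RefSeq promoter, which gave 124 promoters. Every RefSeq start of a matched gene was counted, so not each of these windows need hold the peak. GAGGAAGT, on either strand, was in 3 of these (2.42%). It was in 256 of 3860 promoters of genes with a retained peak (6.63%), taken the same way, and in 3.2% of all 32851 RefSeq promoters. GGAA, which is contained in it, was in 96% of promoters of genes with a lost peak and 99% of those of genes with a retained peak. It was in 96% of all, so that it does not separate them. TTGCNNAA, a C/EBP pattern, was in 8.87%, 8.7% and 10.8% in the same order, and TGANTCA, an AP-1 pattern, in 4.03%, 5.31% and 7.81%. An NF-kB pattern was in 2.42% (3 promoters), 1.87% and 1.47%. For lost peaks with no PU.1 within 500 bp after KLA, which gave 67 promoters, TTGCNNAA was in 11.9% (8 promoters). The NF-kB pattern was in 2.99% (2 promoters) of that set. A match describes letters and not binding, and the windows are those of GRCm38.p6 whereas peaks are on mm9.

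The 5 promoters differed in the H3K27Ac tags of their regions after KLA. Histone values given here and below for single sites are tag totals of whole regions, not divided by length. The ends of a region can differ between libraries, so a total can change without a change of the mark at the site. The region over the Lair1 peak (mm9 chr7:4014712-4014912, untreated PU.1 81.6 tags in C57BL6/J and 102.7 in BALBc/J) had 73.3 and 79.4 H3K27Ac tags after KLA in C57BL6/J and BALBc/J, against 254.8 and 176.7 untreated. The region at Fam43a had 598.2 and 485.4 tags after KLA, against 52.3 and 73.1 untreated. That at Rab11a had 545.4 and 513.6 after KLA, against 400.2 and 303.0 untreated. The H3K27Ac total was thus lower at Lair1 and higher at Fam43a and Rab11a in both strains. At Dpp7 it was lower in both strains, with 96.8 and 96.1 after KLA against 122.5 and 166.1 untreated. At Arpc1b the strains differed in direction, with 417.9 and 461.1 after KLA against 524.3 and 454.5 untreated. None of these 5 had a p65 peak in any library. Of the 5 other promoters among the strongest considered, Sirt2 had p65 at 206.0 and 332.4 tags in C57BL6/J and 210.1 in 1 BALBc/J library, Dap in all 4 libraries at 16.1 to 39.0 tags and Ube2v1 in 2 at 26.6 and 40.3, while Tes and Dcp1b had none. The nearest genes were tested in GRO-Seq, which measures nascent RNA on the polymerase. Lair1 nascent RNA fell by 1.67 ± 0.36 on the log2 scale (SE; limma adjusted p = 3.89e-05), Fam43a rose by 2.28 ± 0.35 (adjusted p = 4.95e-09), and Rab11a (0.52 ± 0.35), Dpp7 (-0.47 ± 0.36) and Arpc1b (-0.04 ± 0.35) did not pass the test.

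A smaller share of the lost than of the retained sites lay at promoters. Within 1 kb of a start site lay 343 of them (15.8%), against 22.8% of the retained and 23.5% of the gained sites. The share was 11.6% among the 1669 sites with no PU.1 within 500 bp and 29.5% among the 508 with one. The median distance to a start site was 14808 bp for lost and 12067 bp for retained sites, and 56.0% and 51.8% lay inside a gene. Among the lost sites, 711 (32.7%) shared their H3K4me2 region with a retained site. The 2177 sites lay in 2141 H3K4me2 regions, with at most 2 in a region. The share of sites lost ranged from 4.68% to 7.23% over the chromosomes. Without the H3K4me2 condition, 4150 sites would have been lost, since 1973 of the 16757 sites outside H3K4me2 (11.77%) met the rest of the rule.

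C/EBPa, the lineage factor that shares many macrophage enhancers with PU.1, was measured in libraries the rule did not use. It was called at fewer lost sites after KLA than before. After KLA, 23.2% of the lost sites in C57BL6/J and 22.3% in BALBc/J overlapped a C/EBPa peak, against 34.0% and 38.0% untreated. At retained sites the shares were 44.0% and 44.7% after KLA and 46.7% and 50.6% untreated. At gained sites they were 42.5% and 42.3% after KLA and 22.6% and 25.9% untreated. The shares were lower after KLA at lost sites and higher after KLA at gained sites in both strains, with 1 library per strain and treatment and hence no test within a strain. The untreated difference between lost and retained sites varied with PU.1 tags. C/EBPa in both untreated strains lay at 24.8% of lost and 22.3% of retained sites under 20 tags. It lay at 31.1% and 27.1% at 20 to 30 tags and at 30.8% and 31.7% at 30 to 50. At 50 to 100 it lay at 35.4% and 39.0%, and at 100 and over at 35.1% and 54.4%.

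Of the 655 lost sites that had C/EBPa in both untreated strains, 165 (25.2%) had it in neither strain after KLA. Over all C/EBPa peaks of both untreated strains that share was 11.8%, and at retained sites it was 9.0% (1185 of 13240). Where a C/EBPa peak was called in both treatments, its tags were lower after KLA at 80.7% of 446 lost sites in C57BL6/J and 83.4% of 447 in BALBc/J. The median log2 ratio of tags, KLA over untreated, was -0.59 and -0.74 at lost sites, -0.12 and -0.18 at retained sites, and -0.07 and -0.12 over the whole lists. It was lower at lost than at retained sites in each band of untreated PU.1 tags up to 100, in both strains. At the lost sites with no PU.1 within 500 bp it was -0.71 and -0.87, and at those with a neighbour -0.16 and -0.34.

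**Figure D2:**
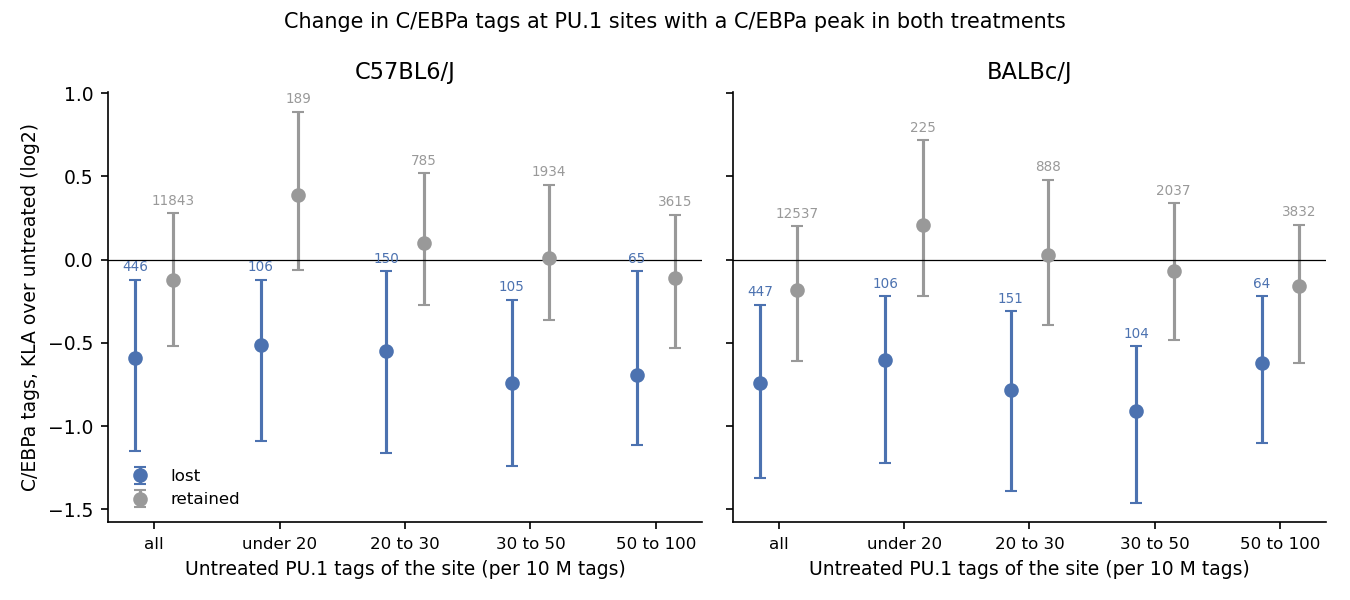
Median and quartiles (bars) of the log2 ratio of C/EBPa tags, KLA over untreated, at lost (blue) and retained (grey) PU.1 sites with a C/EBPa peak in both treatments, by untreated PU.1 tags, with the number of sites above each bar. The lost medians lie between -0.51 and -0.91 in the bands, and the retained ones between -0.16 and 0.39.

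H3K27Ac, the mark of active enhancers and promoters, was also called at fewer lost sites after KLA. It overlapped 41.8% of them in C57BL6/J and 42.0% in BALBc/J after KLA, against 58.2% and 59.5% untreated. Retained sites had 55.1% and 56.5% after KLA, against 63.9% and 64.4% untreated. The difference between treatments was larger at the sites with no PU.1 nearby. These had 34.2% and 34.9% after KLA against 53.6% and 55.2% untreated, while the 508 with a neighbour had 66.7% and 65.4% against 73.6% and 73.6%.

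Before treatment, a larger share of the strong lost sites than of the strong retained sites had H3K27Ac. At 50 to 100 PU.1 tags, untreated H3K27Ac lay at 89.7% and 87.8% of the lost sites in C57BL6/J and BALBc/J, against 64.2% and 64.4% of the retained sites. After KLA the shares at these sites were 72.1% and 68.7% for lost and 54.9% and 55.7% for retained. Untreated H3K27Ac in both strains lay at a larger share of the lost than of the retained sites in every band of PU.1 tags. The shares were 28.0% and 25.1% under 20 tags and 90.9% and 72.1% at 100 and over. With all bands together the lost share was smaller, at 52.7% against 57.7%. Under 20 tags, the lost sites with no PU.1 within 500 bp had 24.8%, just below the 25.1% of the retained sites. At or above the median of the members, 77.0% of the lost and 66.6% of the retained had it untreated (mean of both strains).

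Among the 1148 lost sites with H3K27Ac in both untreated strains, 254 (22.1%) had it in neither after KLA, against 14.9% of all such regions and 12.8% at retained sites. The share was 27.9% where no PU.1 lay within 500 bp and 8.5% where it did. By untreated PU.1 tags, it was 27.1% at lost and 7.5% at retained sites under 20, and 17.0% and 13.7% at 50 to 100. At 100 and over the order was the other way, with 4.3% (3 of 70) at lost and 13.4% at retained sites. Several sites can lie in 1 stitched region, and the lost sites lay in 1232 untreated C57BL6/J H3K27Ac regions. Where the mark was called in both treatments, its density (tags per base of the region) was compared, with each untreated region counted once. The median log2 ratio of density, KLA over untreated, was -0.42 in C57BL6/J and -0.31 in BALBc/J at lost sites. At retained sites the ratio was -0.35 and -0.25, and over the whole lists -0.31 and -0.21. It was -0.47 and -0.37 at lost sites with no PU.1 within 500 bp and -0.29 and -0.17 at those with a neighbour. At 50 to 100 PU.1 tags the lost sites had -0.55 and -0.47, against -0.34 and -0.22 at retained sites. Those with no neighbour had -0.65 and -0.57, with a lower density after KLA in 81.7% and 78.4% of their regions. New H3K27Ac in both strains was rare, at 26 of 762 lost sites without it untreated.

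H3K4me2, which the rule required in untreated C57BL6/J, stayed. After KLA it overlapped 89.6% of the lost sites in C57BL6/J and 88.1% in BALBc/J, against 92.7% and 91.5% of the retained ones. Of the 1909 lost sites with the mark in both untreated strains, 31 (1.6%) had it in neither after KLA, against 1.4% of all regions and 1.2% at retained sites. Its median density ratio at lost sites was 0.01 and -0.01 on the log2 scale.

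p65 was profiled only after KLA, in 4 libraries, so its untreated binding was not measured. After KLA, p65 overlapped 20.5% and 18.1% of the lost sites in the C57BL6/J replicates 1 and 2. The shares were 17.2% and 11.4% in the BALBc/J replicates 1 and 2. At retained sites the same libraries had 60.6%, 57%, 55.5% and 45.5%, so that every library had less p65 at lost sites and the ranges did not overlap. The means were 16.8 ± 3.9% at lost and 54.6 ± 6.5% at retained sites (SD, n = 4 libraries), a difference of -37.8 ± 2.6 percentage points, lower in 4 of 4. The exact two-sided sign-flip permutation test over libraries gave p = 0.125, the smallest it allows.

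At gained sites p65 overlapped 65%, 63.6%, 63.2% and 57.9% in the same libraries. The difference between lost and retained sites held in every band of untreated PU.1 tags, from -23.2 percentage points under 20 tags to -52.1 at 100 and over. No p65 peak in any library was found at 73.1% of lost and 32.3% of retained sites, and p65 in all 4 at 8.4% and 40.8%. Where p65 was called, its median tag signal over the libraries was 28.0 to 33.4 at lost and 50.8 to 63.3 at retained sites. BALBc/J had less p65 at lost sites than C57BL6/J by 5.0 percentage points, which the exact permutation test did not separate (p = 0.333, the smallest it allows with 2 against 2).

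**Figure D3:**
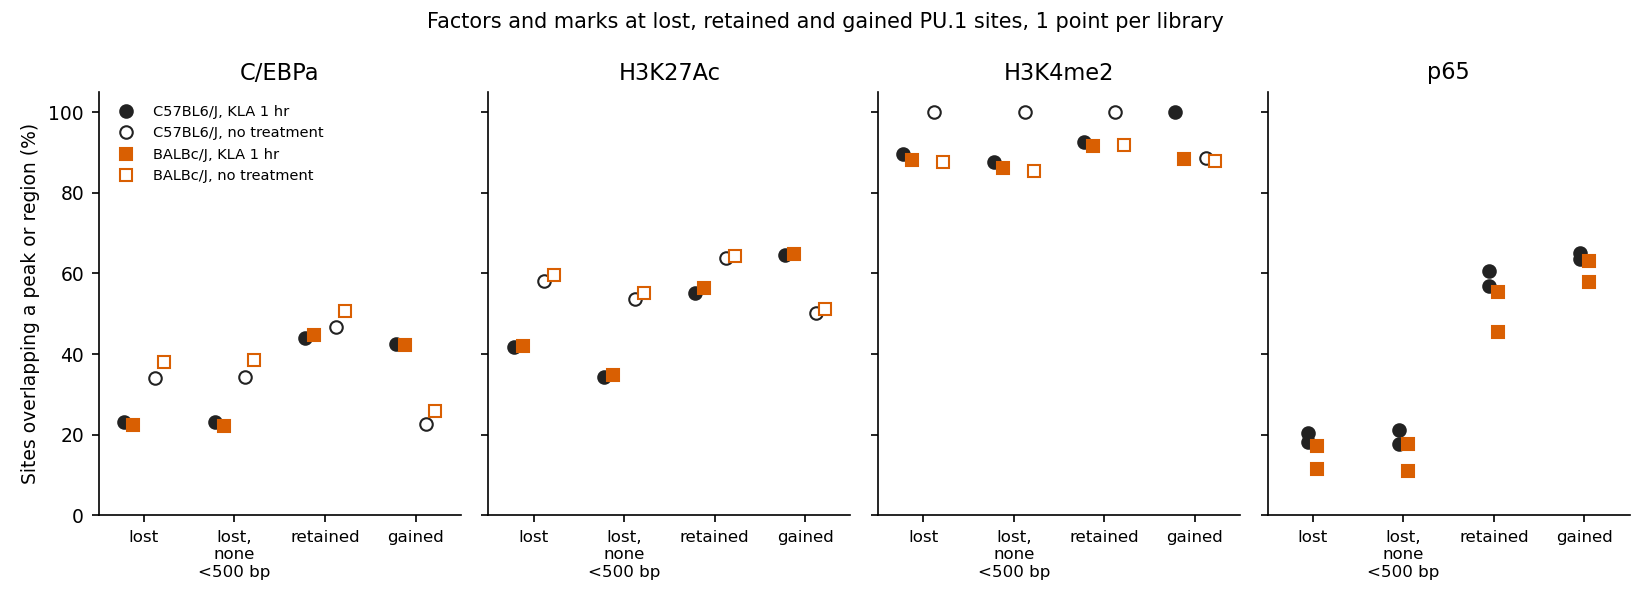
Percentage of lost, retained and gained PU.1 sites overlapping a C/EBPa, H3K27Ac, H3K4me2 or p65 peak or region, with 1 point per library (black circles C57BL6/J, orange squares BALBc/J, filled after KLA and open untreated). At lost sites p65 lies between 11.4% and 20.5% and at retained sites between 45.5% and 60.6%. H3K4me2 was required, by choice of the sites, in untreated C57BL6/J for lost and retained sites and in C57BL6/J after KLA for gained sites.

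Among the 12 strongest lost sites, only those at Rab11fip5 and Cmklr1 had no PU.1 peak within 500 bp after KLA. The highest had 293.2 PU.1 tags in untreated C57BL6/J and 320.2 in BALBc/J, 79 bp before the start of Sh3tc1 (mm9 chr5:36071904-36072104), with a PU.1 peak after KLA 227 and 230 bp away. C/EBPa stayed there, with 82.0 and 80.6 tags after KLA against 96.2 and 103.5 untreated, and p65 was present in all 4 libraries. The H3K27Ac region at Sh3tc1 had fewer tags after KLA, 453.0 and 450.9 against 1292.0 and 825.2 untreated. At a site 9735 bp into Snx8, a sorting nexin gene, PU.1 had 190.8 and 191.5 tags, and the nearest peak after KLA lay 216 bp away in both strains. Sh3tc1 and Snx8 nascent RNA did not pass the test (-0.42 ± 0.33 and -0.53 ± 0.33). At 4 hr Snx8 RNA fell by 1.47 ± 0.18 (adjusted p = 0.000323), and Sh3tc1 was not called (-0.43 ± 0.17).

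The strongest site without such a neighbour lay 3791 bp into Rab11fip5, which encodes an effector of Rab11 vesicle transport (mm9 chr6:85320737-85320937). PU.1 had 174.2 tags in untreated C57BL6/J and 236.0 in BALBc/J, and the nearest PU.1 peak after KLA lay 1195 bp away. C/EBPa had no peak after KLA, against 76.2 and 115.7 tags untreated. The H3K27Ac region had 134.9 and 312.5 tags after KLA, against 965.3 and 693.6 untreated, and H3K4me2 had 3188.4 and 3119.2 against 3028.2 and 2868.9. Rab11fip5 nascent RNA was 53.6 and 89.7 tags per 10 M after KLA in C57BL6/J and BALBc/J, against 252.5 and 211.8 untreated, and fell by 1.60 ± 0.33 on the log2 scale (adjusted p = 2.2e-05). Its RNA was 1249.7, 825.8 and 181.1 tags untreated and at 1 and 4 hr in C57BL6/J and 1242.1, 786.8 and 255.9 in BALBc/J.

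Not every strong loss had this company. At a site 3054 bp into Cmklr1, the chemerin receptor gene, PU.1 had 174.2 and 157.8 tags, and the nearest PU.1 peak after KLA lay 1700 bp away or more. H3K27Ac there stood at 1280 and 1042.6 tags after KLA, against 1630.1 and 1237.1 untreated. Cmklr1 did not pass the test in nascent RNA (0.62 ± 0.35) or in RNA at 4 hr (0.34 ± 0.21). At a site 608 bp into Apbb1ip, an adaptor of integrin activation, PU.1 had 152.1 and 136.4 tags, and H3K27Ac was higher after KLA, with 673.0 and 773.6 tags against 486.8 and 358.8. Apbb1ip RNA rose by 1.03 ± 0.17 at 4 hr (adjusted p = 0.00144).

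Next, the response of the nearest genes was asked. Expression is in tags over exons per 10 M, not corrected for length. In bulk RNA, fewer cells of a type and less RNA per cell cannot be told apart. The fit was made in limma on log2(tags + 10) with the strains as the 2 replicates, and a call needed an adjusted p below 0.05 together with a change of 1 or more. Within 100 kb of a start site lay 1960 lost sites, nearest to 1703 genes, of which 1177 were tested in GRO-Seq and 1307 in RNA-Seq. Of the 1703, 1450 were also nearest to a retained site, and 208 to 2 or more lost sites, at most 5.

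A larger share of the genes nearest to lost sites than of all genes was called lower. In GRO-Seq at 1 hr, 260 of 1177 (22.1%) were lower and 76 (6.46%) higher, against 15.5% lower and 4.31% higher of all 9110 genes tested. Genes nearest to retained sites and to no lost site had 14.8% lower and 4.36% higher. These 336 calls depended on the settings of the fit. With no filter on low values limma called 0 genes, named ones included, where 293 had an unadjusted p under 0.05 and a change of 1 or more, and with a pseudocount of 50 it called 153. In RNA-Seq at 4 hr, 399 of 1307 (30.5%) were lower and 130 (9.95%) higher, against 21.3% and 8.1% of all 10692 genes, and 21.1% and 8.43% of those with retained sites alone. In RNA-Seq at 1 hr, 18 (1.38%) were lower and 45 (3.44%) higher, against 1.43% and 1.82% of all genes. With no filter the calls numbered 306 at 4 hr and 2 at 1 hr.

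The median change was -0.42 at the genes nearest to lost sites and -0.34 over all genes in GRO-Seq, and -0.55 and -0.47 in RNA-Seq at 4 hr. Because the median gene itself moved, the split was repeated relative to it. With libraries centred on the median gene, 147 genes (12.5%) were lower and 124 (10.5%) higher in GRO-Seq, against 7.08% and 6.78% of all genes. At 4 hr, 243 (18.6%) were lower and 188 (14.4%) higher, against 9.74% and 11.7%. At 1 hr, 8 (0.612%) were lower and 53 (4.06%) higher, against 0.73% and 2.25%. Both directions thus stood above the level of all genes in GRO-Seq and at 4 hr.

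The GRO-Seq library of C57BL6/J after KLA had 7.39% of its tags in exons of the genes, against 9.83% untreated, where the BALBc/J libraries had 9.01% and 8.98%. In BALBc/J alone, 15.7% of the genes nearest to lost sites were past 1 on the log2 scale downward, against 9.88% of all genes. In C57BL6/J alone these shares were 30.5% and 25.2%.

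The share of genes called lower was higher with more lost sites. With 2 or more, 47 of 167 (28.1%) were lower in GRO-Seq and 77 of 180 (42.8%) in RNA-Seq at 4 hr. With 3 or more, the counts were 14 of 39 (35.9%) and 21 of 39 (53.8%). Genes with many PU.1 sites and none lost also had a share above that of all genes. With 4 or more retained sites and no lost site, 18.3% were lower in GRO-Seq and 27.4% at 4 hr, and 9.06% and 13.4% were higher.

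The share called lower was also above that of all genes nearest to lost sites where the lost site had lost H3K27Ac or C/EBPa. Where H3K27Ac was gone from the lost site in both strains, 58 of 146 genes (39.7%) were lower in GRO-Seq and 3 higher, and at 4 hr 84 of 166 (50.6%) were lower and 8 higher. Where it was kept, 17% were lower and 9.85% higher in GRO-Seq. Retained sites that lost H3K27Ac, at genes without a lost site, had 29.3% and 35.4% lower in GRO-Seq and at 4 hr. Where C/EBPa was gone from the lost site, 31.3% and 42.2% were lower, against 22.2% and 29.2% for retained sites that had lost C/EBPa. Genes nearest to gained sites had 12.3% lower and 12.4% higher in GRO-Seq.

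Seen from the genes, 6.89% of the PU.1 sites nearest to genes that were lower in GRO-Seq were lost, against 5.34% at genes not called and 5.47% at genes that were higher. Gained sites were 4.02%, 5.47% and 10.85% of the sites after KLA in the same order. By untreated PU.1 tags, the shares lost at lower, uncalled and higher genes were 22.34%, 17.26% and 16.96% under 30 tags. They were 8.41%, 5.91% and 7.41% at 30 to 50, and 2.73%, 1.69% and 2.62% at 50 and over. From 30 tags up, both called classes thus stood above the genes not called. The lost sites were spread over all classes, while the share gained was highest at genes that were higher.

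**Figure D4:**
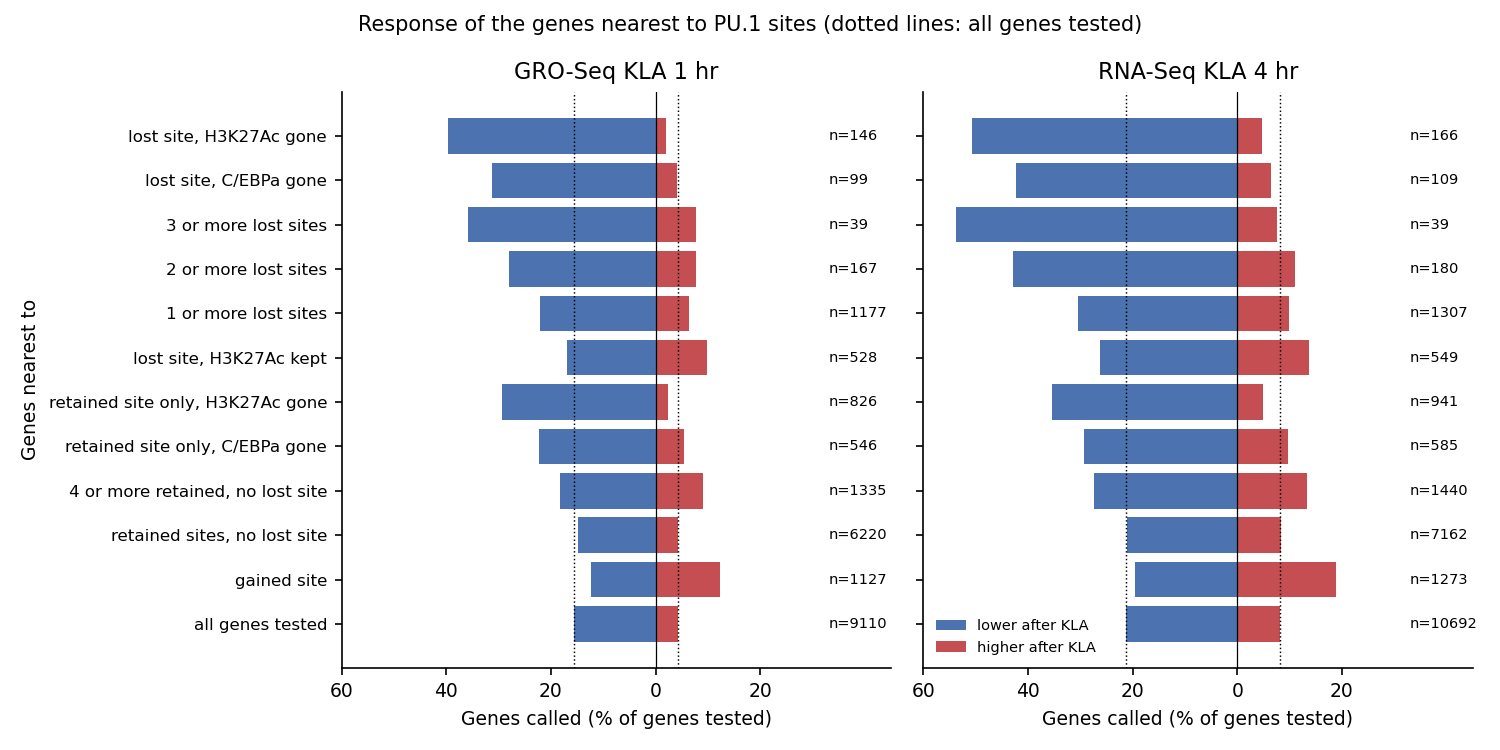
Percentage of tested genes called lower (blue, to the left) and higher (red, to the right) after KLA in GRO-Seq at 1 hr and RNA-Seq at 4 hr, by the PU.1 sites they are nearest to, with the number tested. Dotted lines show all genes tested, 15.5% lower and 4.31% higher in GRO-Seq and 21.3% and 8.1% in RNA-Seq.

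Among genes with 2 or more lost sites, those that fell most in GRO-Seq included Arhgap25, a GTPase-activating protein of Rac in leukocytes. Its nascent RNA was 70.2 and 71.0 tags per 10 M after KLA in C57BL6/J and BALBc/J, against 817.5 and 421.6 untreated, and fell by 2.89 ± 0.32 (adjusted p = 1.03e-17). RNA was 6347.6, 3774.0 and 562.6 tags untreated and at 1 and 4 hr in C57BL6/J and 5493.9, 3361.5 and 678.0 in BALBc/J. At the site 2798 bp into Arhgap25 the H3K27Ac region, with 2989.1 and 2431.7 tags untreated, was not listed after KLA in either strain, while H3K4me2 had 3091.5 and 2652.8 tags after KLA against 3105.7 and 2935.9 untreated.

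Dnmt3a, which encodes a de novo DNA methyltransferase, had 3 lost sites, none with PU.1 within 500 bp after KLA, and 14 retained sites. Its nascent RNA was 325.9 and 341.2 tags after KLA, against 1945.0 and 1542.3 untreated, and fell by 2.34 ± 0.27 (adjusted p = 4.62e-16). RNA was 9135.0, 6504.0 and 869.0 tags untreated and at 1 and 4 hr in C57BL6/J and 6289.2, 4815.1 and 1057.6 in BALBc/J. Both strains were lower after KLA, with no overlap between treatments in nascent RNA or in RNA at 4 hr. The strongest of its lost sites (mm9 chr12:3868158-3868358) had 138.3 and 137.9 PU.1 tags, and its H3K27Ac region held 812.3 and 671.2 tags after KLA against 5602.6 and 4232.3 untreated.

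Rxra, the retinoid X receptor alpha that pairs with LXR and PPAR receptors, also had 3 lost sites without a neighbour. Its nascent RNA was 15.4 and 30.4 tags after KLA, against 133.6 and 154.4 untreated, and fell by 2.26 ± 0.36 (adjusted p = 9.69e-09). RNA was 1069.5, 703.9 and 198.4 tags untreated and at 1 and 4 hr in C57BL6/J and 1044.0, 584.8 and 202.4 in BALBc/J. These 3 sites were weak, with 16.6 to 36.0 untreated PU.1 tags in C57BL6/J and 13.8 to 24.5 in BALBc/J. No C/EBPa or p65 peak was listed at any of them, and the H3K27Ac region of 305.4 and 265.8 tags untreated at the first of them was not listed in C57BL6/J and stood at 6.4 tags in BALBc/J after KLA.

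Further genes of this group fell at 4 hr. Zfp395, with 3 lost sites, fell by 3.95 ± 0.24 (adjusted p = 1.16e-05), to 7.4 and 10.9 tags after 4 hr against 303.3 and 267.9 untreated. At its strongest lost site (mm9 chr14:65965874-65966074) C/EBPa had 80.1 and 90.2 tags after KLA against 202.4 and 238.5 untreated, and the H3K27Ac region of 834.7 and 803.9 tags was no longer listed. St6gal1, the sialyltransferase that adds alpha-2,6-linked sialic acid, had 3 lost sites and fell by 3.25 ± 0.21 (adjusted p = 1.78e-05). Its strongest lost site had 88.5 and 82.7 PU.1 tags, and the C/EBPa peak of 98.2 and 103.5 tags was absent after KLA. The gene 4632428N05Rik, which encodes the checkpoint receptor VISTA, fell by 1.85 ± 0.31 in nascent RNA and fell by 2.82 ± 0.15 at 4 hr (adjusted p = 8.8e-08 and 6.92e-06). At 2 of its 3 lost sites C/EBPa and H3K27Ac were both gone in both strains. Gadd45g (growth arrest and DNA damage), Lhfpl2, Ypel2, Mtss1 (a membrane-bending actin regulator) and Amz1 changed by -1.88, -2.66, -3.83, -3.70 and -3.35 at 4 hr, all called, though Lhfpl2 not with no filter (adjusted p = 0.0933).

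Genes with many lost sites were not all called. Slc16a7, a monocarboxylate transporter gene, had the most (5, beside 5 retained) and fell in nascent RNA by 1.06 ± 0.22 (adjusted p = 1.31e-05), to 6.2 and 5.9 tags after KLA against 20.3 and 27.3 untreated. The Slc16a7 call was lost relative to the median gene (-0.71) and with a pseudocount of 50 (-0.39), and so was that of its RNA at 4 hr (-1.17 ± 0.19, with -0.75 and -0.98). Lgmn, the lysosomal protease legumain, had 4 and fell by 1.54 ± 0.33 in nascent RNA (adjusted p = 3.66e-05), while its RNA change at 4 hr was -0.87 ± 0.16, under the size needed for a call. Atp6v1c1, a subunit of the proton pump of lysosomes, had 4 and fell by 1.23 ± 0.33 and, at 4 hr, by 1.47 ± 0.15, of which the first call was lost relative to the median gene (-0.88) and with a pseudocount of 50 (-0.97). Runx1, a lineage transcription factor, had 4 lost beside 22 retained sites, 3 of the 4 with PU.1 nearby after KLA, and its nascent RNA (0.32 ± 0.29) did not pass the test. Nor did that of Ankrd11, D17Wsu92e and B230120H23Rik (-0.50, -0.60 and -0.35), each with 4. At 4 hr B230120H23Rik RNA fell by 1.27 ± 0.30 (adjusted p = 0.00879), a call lost relative to the median gene (-0.84), while Runx1, Ankrd11 and D17Wsu92e (-0.53, -0.68 and 0.43) were not called.

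Some genes that rose strongly also had lost sites. Cd44, a hyaluronan receptor, had 4 without a neighbour, and its nascent RNA was 2407.6 and 2121.9 tags after KLA, against 382.8 and 348.0 untreated, a rise of 2.60 ± 0.26 (adjusted p = 1.24e-20). At the only lost Cd44 site with a p65 peak, 37897 bp into the gene, p65 had 117.6, 110.6, 98.0 and 74.9 tags in the 4 libraries. C/EBPa there had 89.6 and 99.8 tags after KLA against 130.3 and 150.8 untreated. At the lost site 2241 bp into Cd44, the C/EBPa peak of 94.2 and 100.0 tags was absent after KLA. Socs3, an inhibitor of cytokine signalling, rose by 4.07 ± 0.32, and its RNA was 309.2, 7244.1 and 12470.9 tags untreated and at 1 and 4 hr in C57BL6/J and 325.6, 6081.4 and 14830.8 in BALBc/J. The weak site 106 bp into Socs3 had 22.1 and 21.5 PU.1 tags untreated, p65 in all 4 libraries at 114.0 to 199.8 tags, and 772.7 and 1581.8 H3K27Ac tags after KLA against 197.6 and 86.4 untreated.

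Traf1, an adaptor of tumour necrosis factor receptors, rose by 2.60 ± 0.34, and its 2 lost sites lay in H3K27Ac regions of 2089.3 and 1977.6 tags after KLA. Neither had a p65 peak. Tnfaip2 rose by 2.44 ± 0.25, and Csf1, the macrophage growth factor, by 1.74 ± 0.36. The 6 genes that rose most in GRO-Seq with 2 or more lost sites were Socs3, Cd44, Traf1, Tnfaip2, Bcl2l11 (2.04 ± 0.30, the pro-apoptotic BIM) and Csf1, each called and higher in both strains.

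**Figure D5:**
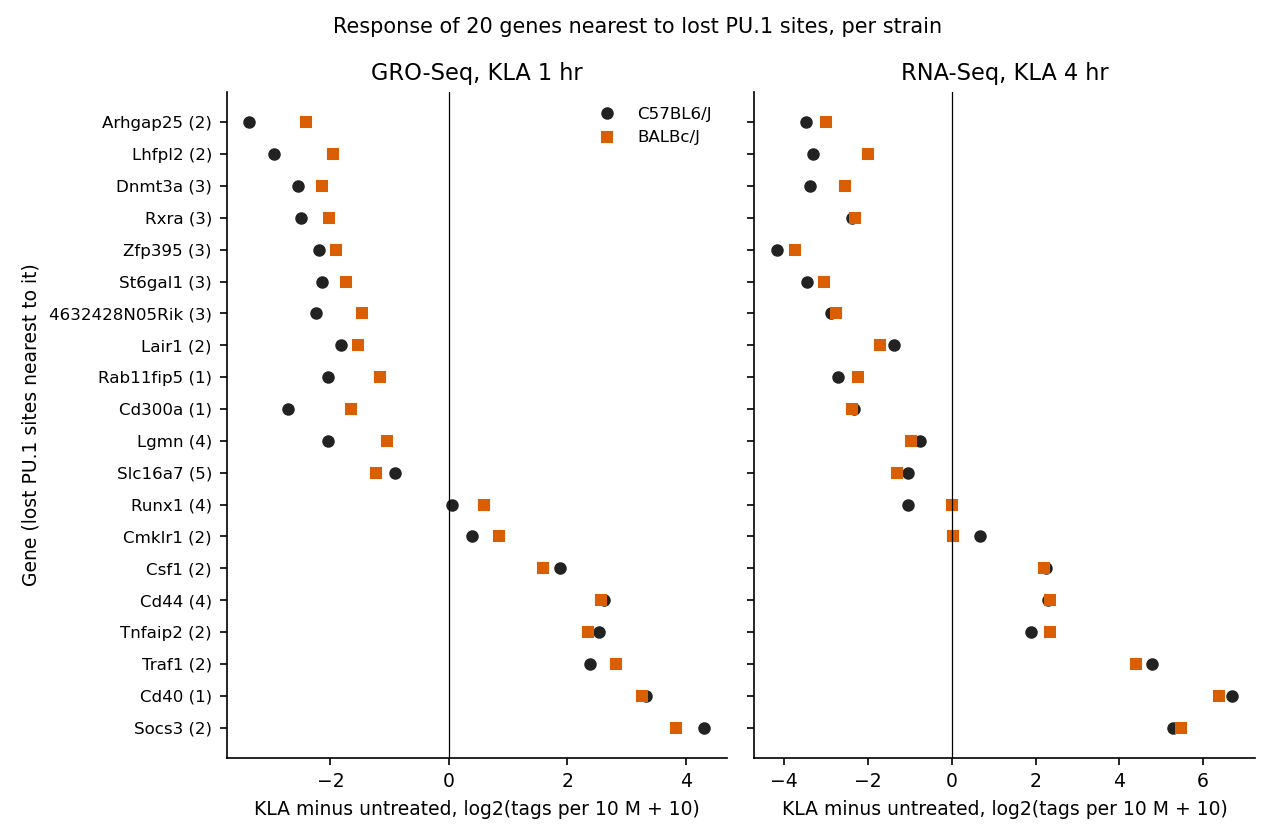
Change after KLA in log2(tags per 10 M + 10) for 20 genes nearest to lost PU.1 sites, per strain (black circles C57BL6/J, orange squares BALBc/J), in GRO-Seq at 1 hr and RNA-Seq at 4 hr, with the number of lost sites in brackets. Arhgap25 to Slc16a7 lie below 0 in both strains and both assays, and Csf1 to Socs3 lie above 0.

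By gene group, the share of PU.1 sites lost (of lost and retained together) was 6.26% over all genes. It was 10.43% for phagocytosis, lectin and lysosome genes, where 8 of 28 genes had a lost site (Lgmn, Hexa, Grn, Cd300a, Gpnmb, Stab1, Gas6 and Ctsl). In GRO-Seq 4 of these 8 were lower and none higher, against 12 lower and 2 higher of the 25 tested in the list. Cd300a, an inhibitory receptor for dying cells, fell by 2.18 ± 0.32, to 53.8 and 118.2 nascent tags after KLA against 407.7 and 390.4 untreated (adjusted p = 5.4e-10). Hexa and Grn, which encode a lysosomal hexosaminidase subunit and progranulin, changed by -0.86 ± 0.32 and -0.94 ± 0.31 and were not called.

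The share was 9.70% for the NF-kB pathway and its feedback genes, where 10 of 25 had a lost site, 8 of these 10 were higher in GRO-Seq and 1 lower, against 20 higher and 1 lower of the 25 tested. Cd40, the costimulatory receptor, rose by 3.30 ± 0.34. Its lost site lay 4483 bp into the gene, with 56.7 and 76.6 untreated PU.1 tags, beside 4 retained sites. The share of sites lost was 5.70% for lineage and signal-dependent transcription factors, with 13 of 46 genes, among them Rxra and Bach1. Nascent RNA of Bach1, a repressor of haem and oxidative stress genes, fell by 1.07 ± 0.33 (limma adjusted p = 0.00613). That call was lost relative to the median gene (-0.71) and with a pseudocount of 50 (-0.85). Of the 12 tested with a lost site, 2 were lower and 1 higher, against 11 lower and 7 higher of 42 in the list.

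Macrophage identity genes had few lost sites, 4 lost beside 141 retained (2.76%), at Emr1, Cybb, Mrc1 and Cd36, each the only one of its gene. Of these, Cd36 (-1.73 ± 0.31) was called lower, Cybb (1.76 ± 0.27) higher, and Emr1 (0.17 ± 0.34) and Mrc1 (0.00 ± 0.33) did not pass. Inflammatory cytokines and chemokines had 3 lost beside 101 retained sites (2.88%), at Csf1 and Ccl2, and both genes were higher in GRO-Seq, as were 24 of the 27 tested in the list. Shares were 5.91% for cytoskeleton and adhesion genes, 5.32% for FoxO targets, 5.00% for interferon response genes, 4.72% for receptors of chemokines, nucleotides and lipids and 3.33% for sterol genes. The lists were compiled with earlier results of these data known, so these shares are a description.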

How the data were processed

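Macrophages were profiled by ChIP-Seq, GRO-Seq and RNA-Seq. The submitters' processing notes name Bowtie 0.12.7, HOMER and build mm9. The authors called peaks and regions per library with input as control, per the file headers. Their tag signal was deposited per 10 M tags, beside a findPeaks score and fold ratios over input and over the surroundings, which are the authors' own values per peak. Expression was deposited as log2 of 1 plus exon tags per 10 M, per the file headers, and whole tags were taken from it.

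The members and gene lists were chosen with earlier results of these data known. Sites were compared by overlap of at least 1 bp, and each was given its nearest start site within 100 kb. Genes reaching 20 tags per 10 M in at least 2 libraries were fitted on log2(tags per 10 M + 10) with treatment and strain terms in limma 3.58.1 (R 4.3.3, lmFit, eBayes with trend), with Benjamini-Hochberg adjustment. This left 1 residual degree of freedom in GRO-Seq, where limma took a single variance trend for all genes, and 2 in RNA-Seq. Standard errors of the fit stand beside log2 changes. The fitted change understates that of low genes. No source used here states the strand of counting, so overlapping genes cannot be told apart.

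Genes named are those nearest to the 12 strongest lost sites and the 6 strongest in promoters, the 10 with the most lost sites, the 6 with the lowest and highest change among called genes with at least 2, and up to 4 per gene list. Further genes were named after their values were seen: those of the strongest sites with no neighbour (Apbb1ip among them) and of the printed promoters. The overlap and the fit were tested on simulated data. Input, F1 hybrid and NOD/ShiLtJ libraries were not used here. Replicate numbers of p65 were shared by the strains but are not stated to mark a day or batch. Sequences of the peaks themselves were not used here. Python 3.11.15 with pandas 2.3.3 and numpy 2.4.6 was used.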

Additional observations from a re-analysis of the deposited data

How the results depend on the processing

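The number of lost sites stayed between 1669 and 2328 under 4 other rules, was 4150 with no H3K4me2 required and 511 among peaks at or above the median of their list. C/EBPa lay at 22.7% of lost sites after KLA and 36.0% untreated (means of both strains). With 100 bp of overlap these were 17.8% and 29.5%, within 500 bp of the centre 38.4% and 49.6%, with peaks above the 25th percentile of their list 17.8% and 30.5%, and among members above the median of 26.8 tags 24.1% and 39.1%. H3K27Ac (41.9% after KLA and 58.9% untreated) went to 39.8% and 56.2%, 46.4% and 63.6%, 37.6% and 53.5%, and 55.7% and 77.0% under the same settings, and to 34.6% and 54.4% without sites that had PU.1 within 500 bp. H3K4me2 after KLA (88.9%) went to 84.2%, 93.8%, 79.5%, 92.7% and 86.9%. Lost sites stayed below retained ones in C/EBPa after KLA throughout. For H3K27Ac among members above the median, the difference from retained sites after KLA was -1.6 percentage points, and untreated it turned to 10.4. For p65 it stayed between -26.3 and -38.5 under the other overlap and site settings. Leaving out replicate 1 or 2 gave p65 at 14.7 to 18.8% of lost sites.

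The genes called in GRO-Seq (336) went to 185 with start sites within 10 kb, 212 for members above the median, 153 with a pseudocount of 50 and 0 in limma with no filter, where 293 genes had an unadjusted p under 0.05 and a change of 1 or more. In RNA-Seq, the 63 at 1 hr went to 38 within 10 kb and 2 with no filter, and the 529 at 4 hr to 284, 322 for members above the median and 306 with no filter. Fewer sites or genes enter under the 10 kb and median settings by construction, and the share called lower stayed above that of all genes (GRO-Seq 21.7% and 23.4% against 15.5%). With no filter, the cause was not tested. With 1 strain left out there is no test, and genes past 1 on the log2 scale numbered 278 to 429 in GRO-Seq, 68 to 87 at 1 hr and 502 to 580 at 4 hr. With no filter, all 43 named genes called in GRO-Seq, all 13 called at 1 hr and 9 of the 44 called at 4 hr lost the call. Over the other 4 settings, 23 further calls were lost in GRO-Seq, 0 at 1 hr and 7 at 4 hr, counting each gene and setting, and no called direction turned.

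Same-numbered p65 libraries of the strains deviated together (correlation 0.65 over 36758 loci), but 2 pairs do not show that the numbers pair the samples. With the replicate block the strain difference at lost sites was -5.0 percentage points (exact permutation p = 0.5), as without it (p = 0.333), and it was -6.7 to -3.3 with 1 replicate left out. In GRO-Seq and RNA-Seq the strain term of the fit already pairs the treatments within a strain. For C/EBPa and the histone marks, with 1 library per strain and treatment, no fit was made. Depth limits what a missing peak means: at 8.21 and 7.81 M tags, PU.1 after KLA was sequenced to a lower total than untreated (8.39 and 9.23 M, BALBc/J and C57BL6/J in each case), and sites near the call threshold cannot be told from sites without PU.1.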
